A study of Mus musculus with 2 samples.

Results

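Solute carrier genes, named Slc followed by a family number, the letter a and a member number, encode membrane proteins that move small molecules across the plasma membrane and the membranes of organelles. Their expression was examined in mouse embryonic stem cells after DMSO or Idoxuridine. The genes were chosen by symbol, with at least 200 unique molecular identifiers (UMIs, each marking 1 captured RNA molecule) over both libraries. Of 344 matching symbols, Slc38a4, Slc2a1, Slc2a3 and Slc29a1 were set aside by the selection rule. Of the other 340, 146 reached the minimum and are described here, against 10380 genes of any kind that reached it, and 194 did not. The nearest genes above the minimum were Slc38a9 (216 UMIs), Slc44a3 (204) and Slc22a7 (204), and the nearest below it were Slc2a5 (199), Slc22a23 (199) and Slc25a43 (195). A symbol is not a function: Slc9a3r1 and Slc9a3r2 (scaffold proteins that bind a sodium-proton exchanger), Slc7a6os and Slc4a1ap match the pattern without being carriers, and were kept as a class of their own.

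The cells were E14, an established line of mouse embryonic stem cells, labelled as male and of strain C57BL/6. They were grown on gelatin without feeder cells in 2i/LIF medium, which holds them in an undifferentiated state. The cells of 1 library received DMSO, the solvent, for 24 h. Those of the other library received Idoxuridine, an iodinated nucleoside that is an analogue of thymidine and is built into DNA, for 24 h, at 10 µM per the treatment label. Another field of the labels gives the dose in mM, and the conflict could not be settled from the files. There was 1 library per treatment, so no difference below has a replicate check, and intervals in parentheses are 95% intervals that cover counting error only. The DMSO library held 811 cells and 40818344 UMIs (median 44502 per cell) and the Idoxuridine library 742 cells and 30454626 UMIs (median 37425). Mitochondrially encoded RNA took a median of 2.56% and 2.81% of a cell's UMIs, and a set of nuclear-retained RNAs 0.319% and 0.507%. The libraries shared 2 cell barcodes. Of the markers examined, 8 for embryonic stem cells summed to 4977 UMIs per 1000000 in DMSO and 3716 in Idoxuridine, 6 for fibroblasts or feeder cells to 0.833 and 9.26 (2 of the 6 at 0 in DMSO), 5 for primitive endoderm to 2.43 and 14.5, 5 for trophoblast to 145 and 233, 4 for neural cells to 132 and 205 and 3 for mesoderm to 3.41 and 17.9. Both blood markers were at 0 in both libraries. Tubb3 held most of the neural sum (127 and 191), and Sox1 was the only neural marker lower in Idoxuridine (0.857 and 0.460). Of the mesoderm markers, T was at 1.86 and 14.9, Mixl1 at 0.710 and 2.07 and Kdr at 0.833 and 0.887. The part of these shifts in the results below was not tested.

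Solute carriers work as exchangers, as cotransporters driven by an ion gradient, or as facilitators that let a solute move down its own gradient. Families are defined by sequence, and most families share a type of substrate. Most members of the Slc25 family sit in the inner membrane of mitochondria, where they exchange nucleotides, phosphate and metabolites with the cytosol. Several amino acid carriers work as pairs: a heavy chain, Slc3a2, brings a light chain of the Slc7 family to the cell surface. In stem cells these carriers supply growth and the one-carbon and amino acid metabolism that dividing cells depend on.

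Levels were read as CPM, the UMIs of a gene per 1000000 UMIs of the library. The UMIs come from the 3′ ends of transcripts, so levels were not divided by gene length. All 146 genes together made up 8090 CPM in DMSO and 8367 CPM in Idoxuridine, that is 0.809% and 0.837% of all UMIs. The levels were unequal. The inner-membrane carriers Slc25a5, Slc25a3 and Slc25a4 alone held 49.8% of the summed level in DMSO and 49.9% in Idoxuridine. Of the 146 genes, 10 had at least 100 CPM in DMSO, 85 had 10 to 100 CPM and 51 had less than 10 CPM.

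**Figure D1:**
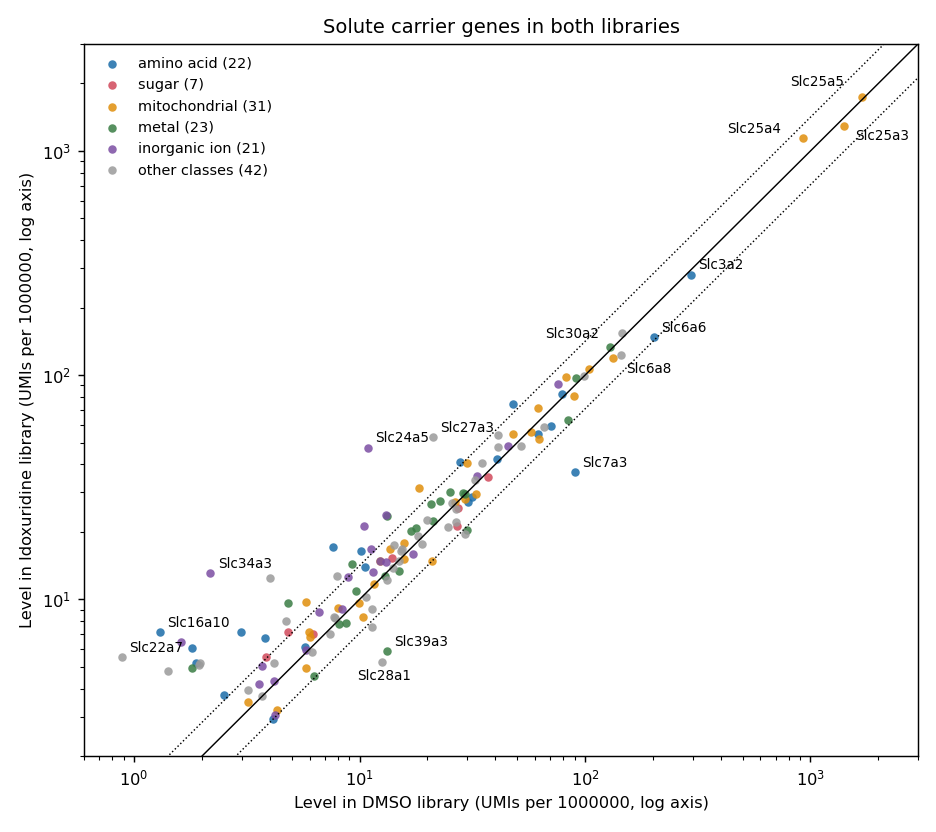
Each point is 1 of the 146 solute carrier genes, with its level in the DMSO library on the x axis and in the Idoxuridine library on the y axis (UMIs per 1000000, log axes), coloured by substrate class; the solid line marks equal levels and the dotted lines 0.5 log2 in either direction. The genes at 100 CPM or more in DMSO lie between the dotted lines, with Slc6a6 furthest from the line of equal levels. Most of the genes outside the dotted lines are below 50 CPM.

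A gene was counted as higher or lower where its level differed by at least 0.5 log2 and the counting intervals of its levels did not overlap. By this rule 33 of the 146 genes (22.6%) were higher in Idoxuridine, where 18.8% of all 10380 genes were. Lower in Idoxuridine were 7 genes (4.79%), against 4.2% of all genes, and 106 were neither. Both shares lay near those of all genes. The median log2 ratio was 0.10 for solute carriers and 0.09 for all genes. Of the solute carrier genes, 75 (51.4%) lay within 0.25 log2 of equal levels, as did 51.3% of all genes. The balance of higher and lower depended on scaling. The TMM factors of edgeR lowered every log2 ratio by the same amount (a shift of -0.21) and gave 23 higher and 16 lower. The median-of-ratios factors of DESeq2 (a shift of -0.25) gave 22 and 19. Calls over all 10380 genes moved the same way, to 12.1% higher and 12.2% lower with TMM. With median-of-ratios factors they were 11.0% and 14.9%. The share of called genes that were higher was 82.5% by total UMIs, 59.0% by TMM and 53.7% by median of ratios. All 23 and all 22 of those higher genes were among the 33, and all 7 lower genes were among the 16 and among the 19.

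Higher calls were less frequent in the more abundant groups. When all genes were split into 4 equal groups by total UMIs (limits of 723, 1880 and 5147), the share of solute carriers called higher was 39.2% in the lowest group, 19.1% in the second, 12.9% in the third and 0% in the highest, where all genes had 39.8%, 21.4%, 10.7% and 3.08%. Lower calls had no such order: they were 5.88%, 6.38%, 3.23% and 0% of the solute carriers and 4.59%, 3.82%, 3.69% and 4.70% of all genes. The median log2 ratios of the solute carriers were 0.23, 0.14, 0.05 and 0.04 from the lowest to the highest group, and those of all genes 0.34, 0.16, 0.05 and -0.05. Of the 33 higher genes, 23 had less than 10 CPM in DMSO, and the most abundant of them, Slc38a7, had 48.0 CPM.

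Sequences upstream of the genes were taken from RefSeq promoters (GRCm38.p6) for the 110 solute carrier genes with an entry, over 250 bases before the listed start. CG dinucleotides are the sites of DNA methylation, and the ratio of their observed to expected number separates CpG-rich from CpG-poor promoters. That ratio was under 0.5 in 28 of the 110 promoters (25.5%), against 18.5% of the 7970 promoters of genes with at least 200 UMIs and 59.1% of all 27025. It was under 0.5 in 11 of the 28 higher genes with an entry (39.3%), 14 of the 78 in neither group (17.9%) and 3 of the 4 lower genes. For all genes counted the shares were 29.2% of higher genes and 15.2% of those in neither group, and none was taken for lower genes. One entry was used per symbol, and some windows lie far from the annotated gene start. The Slc39a10 window is at 46925777 to 46926026, while the gene spans 46807544 to 46892852. Those of Slc4a5, Slc4a7 and Slc41a3 lie inside their genes. These and Slc39a10 are among the 28 of 110 promoters under 0.5. Windows inside genes also occur above 0.5, among them those of Slc3a2 (ratio 0.64), Slc12a7 (0.63) and Slc31a2 (0.92). Such windows were not counted. The following stretches are shown for abundant carriers of similar level in both libraries (Slc25a5, Slc25a3), for genes of high ratio (Slc24a5, Slc34a3, Slc16a10) and for Slc28a1 among the lower. Each ends before the first annotated base of its gene, and capitals mark CG. They lie at chrX:36795347-36795596 (forward), chr10:91124060-91124217 (reverse), chr2:125067877-125068123 (forward), chr2:25234365-25234484 (reverse), chr10:40142259-40142504 (reverse) and chr7:81114549-81114798 (forward).
Slc25a5: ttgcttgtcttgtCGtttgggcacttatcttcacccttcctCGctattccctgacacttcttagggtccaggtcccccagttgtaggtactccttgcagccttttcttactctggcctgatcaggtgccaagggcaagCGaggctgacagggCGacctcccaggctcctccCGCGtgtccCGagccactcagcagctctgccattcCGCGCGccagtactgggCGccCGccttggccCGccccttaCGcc
Slc25a3: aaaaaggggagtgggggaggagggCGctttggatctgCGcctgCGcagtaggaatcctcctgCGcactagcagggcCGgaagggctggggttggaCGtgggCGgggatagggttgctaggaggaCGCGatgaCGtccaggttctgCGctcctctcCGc
Slc24a5: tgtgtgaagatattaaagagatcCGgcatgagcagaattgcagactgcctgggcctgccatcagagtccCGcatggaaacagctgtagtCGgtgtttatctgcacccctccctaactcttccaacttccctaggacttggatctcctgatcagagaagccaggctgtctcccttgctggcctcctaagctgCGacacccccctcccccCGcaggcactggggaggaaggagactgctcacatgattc
Slc34a3: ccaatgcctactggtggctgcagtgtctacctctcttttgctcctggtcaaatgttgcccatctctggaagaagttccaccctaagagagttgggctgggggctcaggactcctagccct
Slc16a10: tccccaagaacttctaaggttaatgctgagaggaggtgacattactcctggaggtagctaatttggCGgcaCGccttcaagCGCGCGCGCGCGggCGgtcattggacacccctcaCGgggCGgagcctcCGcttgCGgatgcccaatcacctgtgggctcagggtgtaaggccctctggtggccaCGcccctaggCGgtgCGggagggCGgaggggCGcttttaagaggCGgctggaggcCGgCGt
Slc28a1: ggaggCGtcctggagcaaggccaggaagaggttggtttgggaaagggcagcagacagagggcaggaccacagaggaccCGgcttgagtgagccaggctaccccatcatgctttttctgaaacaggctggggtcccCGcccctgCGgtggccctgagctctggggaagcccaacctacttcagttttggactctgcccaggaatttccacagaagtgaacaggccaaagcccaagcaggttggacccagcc

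The stretches differ in their CG content, also among the genes of high ratio. Slc25a3 held 12 CG in 158 bases and Slc25a5 14 in 250 bases. Of the high-ratio genes, Slc34a3 held none in 120 bases and Slc24a5 held 5 in 247 bases, while Slc16a10 held 21 in 246 bases, the most of the 6. Slc28a1, of low ratio, held 4 in 250 bases. Known motif cores were searched on both strands of the same 250 bases. The amino acid response element core TGATGNAA was in 2 of the 110 promoters (1.82%) and in 3.53% of all 27025 promoters. The metal response element core TGCNCNC was in 58 (52.7%, all promoters 43.8%), the antioxidant response element core TGACNNNGC in 19 (17.3%, all promoters 10.1%) and the E-box CACGTG in 16 (14.5%, all promoters 6.05%). Among all genes with at least 200 UMIs, the shares were 1.82%, 52.6%, 12.2% and 9.02%.

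**Figure D2:**
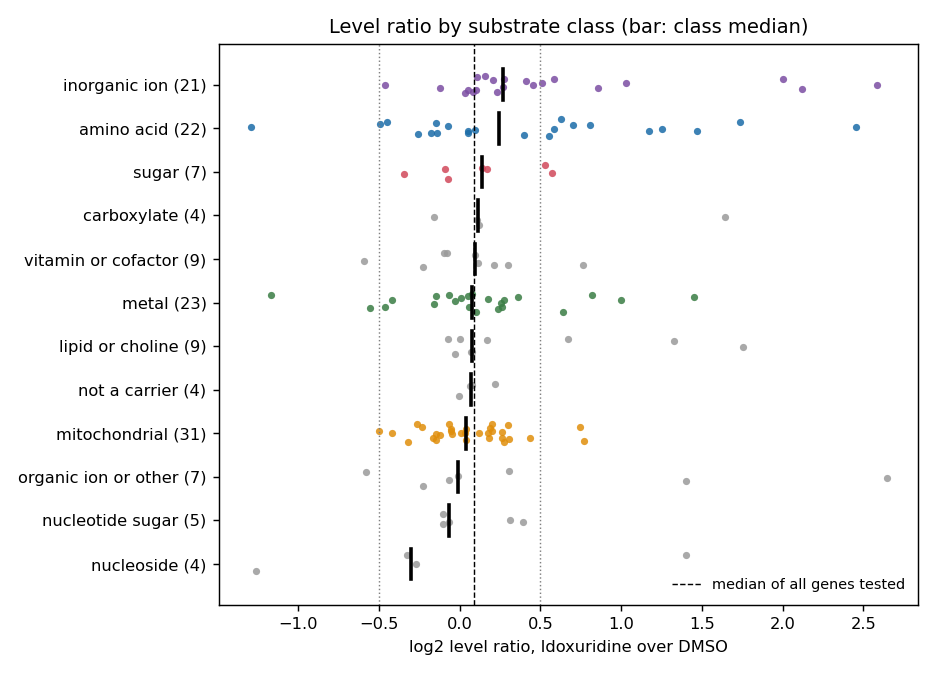
Each point is 1 gene, placed by its log2 level ratio of Idoxuridine over DMSO (x axis) in the row of its substrate class, with the number of genes in brackets; thick bars are class medians, the dashed line is the median of all genes tested and the dotted lines mark 0.5 log2. The medians of the inorganic ion class (0.27) and the amino acid class (0.25) lie furthest to the right of the dashed line and that of the nucleoside class (-0.30, 4 genes) furthest to the left; TMM and median-of-ratios factors move all points left together, by 0.21 and 0.25, which brings the amino acid median to 0.03 and -0.01.

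Mitochondrial carriers were the largest class, and few of them were called. The 31 Slc25 genes summed to 4952 CPM in DMSO and 5124 CPM in Idoxuridine, 61.2% of the solute carrier total in each. Of the 31, 2 were higher (6.45%, against 18.8% of all genes), 1 was lower and 28 were neither. Their median log2 ratio was 0.04, and -0.17 and -0.22 with TMM and median-of-ratios factors, where all genes had 0.09, -0.12 and -0.16. At the fixed depth used for single cells, 23500 UMIs per cell, a cell held a median of 115 UMIs of this class in DMSO and 120 in Idoxuridine, with 62.8% of the cells of the Idoxuridine library above the DMSO median. These per-cell values are by total UMIs. The log2 ratio of the class sums was 0.05, smaller in size than the shifts of -0.21 (TMM) and -0.25 (median of ratios), so its direction depends on scaling.

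Slc25a5 (chromosome X, 36795651 to 36798807, forward strand) encodes an ADP/ATP carrier and was the most abundant solute carrier gene, at 1698 CPM (1685 to 1710) in DMSO and 1741 (1726 to 1755) in Idoxuridine. Its paralogue Slc25a4 (chromosome 8, 46206797 to 46211284, reverse strand), which carries out the same exchange, was at 922 CPM (913 to 931) in DMSO and 1141 (1129 to 1153) in Idoxuridine (log2 ratio 0.31, interval 0.29 to 0.33). The level of Slc25a4 was thus 0.543 times that of Slc25a5 in DMSO and 0.656 times in Idoxuridine. Slc25a3 (chromosome 10, 91116574 to 91124059, reverse strand), the mitochondrial phosphate carrier, was at 1406 CPM (1395 to 1418) and 1293 (1281 to 1306), a log2 ratio of -0.12. The difference of each of these 3 genes was larger than counting error and smaller than the 0.5 log2 asked of a call. The ratio of Slc25a5 was 0.04 by total UMIs and -0.17 with TMM factors, while that of Slc25a4 stayed above 0 at 0.10 and, with median-of-ratios factors, 0.06. Slc25a5 has an annotated pseudogene, and reads of such a copy could be split between them, so its count is less certain. A small RNA gene, Gm24119, lies inside Slc25a3 on the same strand.

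Further down the class, Slc25a13, the aspartate-glutamate carrier citrin, was at 134 CPM in DMSO and 119 in Idoxuridine. Slc25a39, which takes glutathione into mitochondria, was at 104 and 107 CPM. The genes called higher were Slc25a46 (18.4 and 31.3 CPM, log2 ratio 0.77), an outer-membrane protein that shapes mitochondria, and Slc25a40 (5.81 and 9.72 CPM, 0.74). With median-of-ratios factors Slc25a40 came to 0.49, just under the size asked, and Slc25a46 to 0.51. Slc25a10, the dicarboxylate carrier, was called lower at 20.9 and 14.8 CPM, with a log2 ratio of -0.50 at the edge of the rule and -0.48 without the cells of high mitochondrial share and the most UMIs. Of the partner genes examined alongside (mitochondrial porins, pyruvate carriers, the calcium uniporter and the import machinery of the inner membrane), 1 of 15 was higher and none lower: Mcu, the pore of the calcium uniporter, at 7.94 and 11.6 CPM (0.55). Of all genes 18.8% were higher and 4.2% lower, and these 15 were more abundant, at a median DMSO level of 70.6 CPM against 25.2.

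The amino acid carriers called higher were all below 50 CPM in DMSO. The class held 22 genes, at a median DMSO level of 19.2 CPM against 25.2 for all genes. Of the 22, 10 were higher (45.5%, against 18.8% of all genes), 1 was lower and 11 were neither. The median log2 ratio was 0.25, which became 0.03 with TMM and -0.01 with median-of-ratios factors. The summed level of the class was nevertheless 1030 CPM in DMSO and 966 CPM in Idoxuridine. The 6 genes above 50 CPM in DMSO summed to 799 and 661 CPM, and 5 of the 6 ratios were below 0. The 16 genes below 50 CPM held all 10 higher calls and summed to 231 and 306 CPM. This split uses the DMSO level, which is also the base of the ratio, so low genes are favoured for higher calls. Over all genes, higher calls also fell, from 39.8% in the lowest group by total UMIs to 3.08% in the highest. No share of all genes was taken at 50 CPM, so the split is not read as a trait of the class. A DMSO cell carried a median of 24.0 UMIs of the class at the fixed depth and an Idoxuridine cell 22.7, with 40.3% of the latter above the DMSO median.

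Slc3a2 (chromosome 19, 8706882 to 8723369, reverse strand), the heavy chain also called CD98 or 4F2hc, was the most abundant amino acid carrier gene, at 295 CPM (290 to 301) in DMSO and 280 (274 to 286) in Idoxuridine. Its light chains were at lower levels. Slc7a5, the LAT1 chain that brings in leucine and other large neutral amino acids, was at 79.4 CPM in DMSO and 82.1 in Idoxuridine. Slc7a7 and Slc7a6 (the y+LAT chains, which exchange cationic for neutral amino acids) were at 28.0 and 41.0 CPM and at 10.2 and 16.5 CPM, log2 ratios of 0.55 (0.44 to 0.67) and 0.70 (0.51 to 0.89). Both were called higher by total UMIs, while TMM factors gave 0.34 and 0.49, under the size asked. Slc7a11, the cystine-glutamate exchanger, had 153 UMIs in all, Slc7a8 had 38 and Slc7a10 had 10, all under the minimum. The counted light chains thus summed to less RNA than the heavy chain in both libraries. The gene Oxa1l overlaps Slc7a7 on the other strand.

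Slc7a3 (chromosome X, 101079210 to 101086020, reverse strand), a carrier of arginine and lysine, had the lowest ratio of all 146 genes. It was at 90.3 CPM (87.4 to 93.3) in DMSO and 36.8 (34.7 to 39.1) in Idoxuridine (log2 ratio -1.29, interval -1.39 to -1.20). Slc7a1, the widely expressed carrier of the same substrates, was at 31.5 and 28.5 CPM. Slc6a6, the taurine carrier, was at 202 CPM in DMSO and 148 in Idoxuridine, a log2 ratio of -0.45 that lay beyond counting error and missed the size asked, which it reached with TMM factors (-0.66). It lies across small annotated genes on both strands. Slc1a5, which takes up glutamine and serine, was at 70.8 and 59.0 CPM, and Slc38a1, a glutamine carrier, at 61.6 and 54.5 CPM.

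The higher amino acid carriers were mostly of low abundance, and 6 of the 10 stayed higher under either scaling. Slc38a7, a glutamine carrier of the lysosome, was the most abundant of them, at 48.0 CPM (45.9 to 50.2) in DMSO and 74.0 (71.0 to 77.1) in Idoxuridine. Its log2 ratio of 0.62 became 0.41 with TMM and 0.37 with median-of-ratios factors, under the size asked. Slc16a10, which lets aromatic amino acids leave and enter cells and belongs by sequence to the monocarboxylate family, was at 1.30 CPM (0.973 to 1.70) and 7.13 (6.21 to 8.14), a log2 ratio of 2.46 (2.02 to 2.92). Slc1a3, a glutamate carrier best known from astrocytes, was at 1.81 and 6.04 CPM (log2 ratio 1.74). Slc43a1 and Slc43a2, which carry large neutral amino acids, had log2 ratios of 1.47 and 1.18. The glutamate carrier Slc1a1 had a log2 ratio of 1.25 and Slc1a4 one of 0.81. Slc38a9, the arginine sensor of the lysosome, was at 2.50 and 3.74 CPM (0.58, with an interval of 0.18 to 0.98), and TMM factors gave 0.37. Of 15 genes of the lysosomal mTORC1 machinery that such sensors report to, 1 was higher (Rragd, a Rag GTPase, at 76.9 and 119 CPM) and none was lower. The shares over all genes were 18.8% and 4.2%, and the 15 had a median DMSO level of 36.6 CPM against 25.2.

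**Figure D3:**
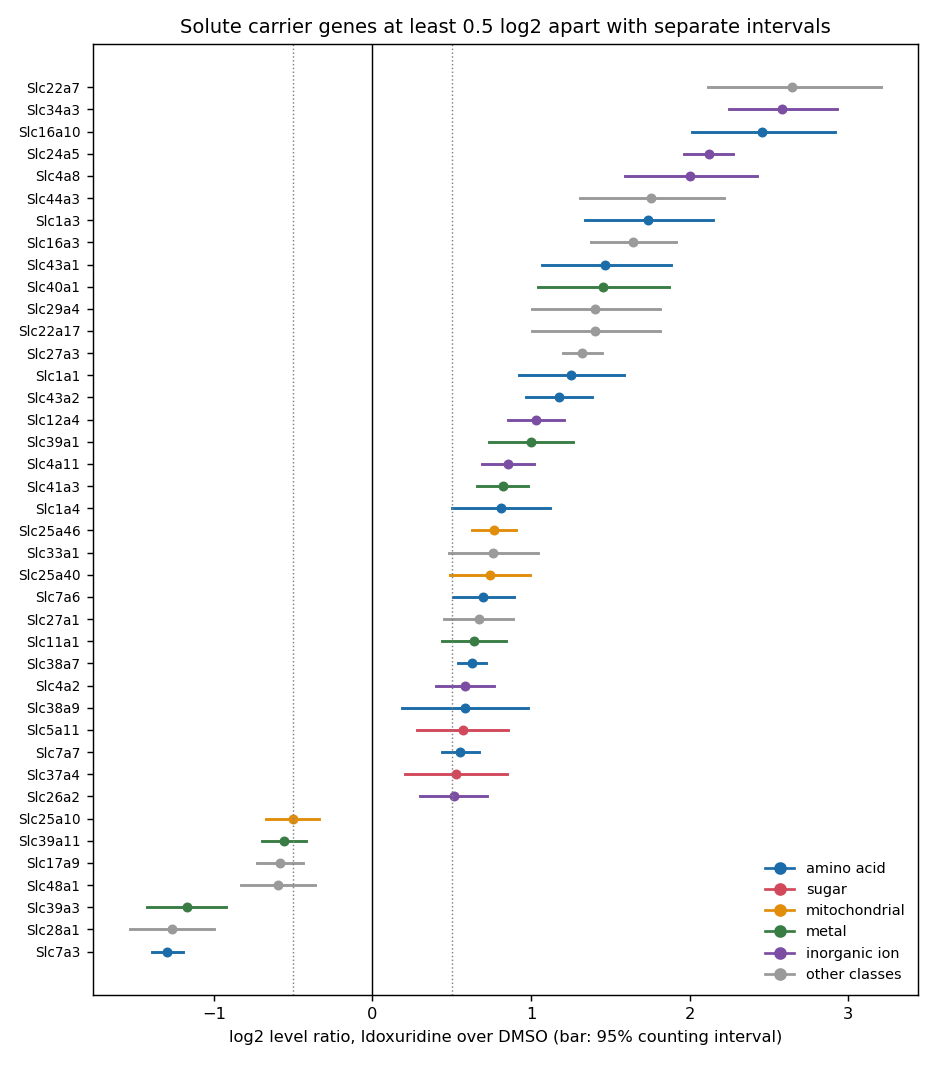
The 40 genes at least 0.5 log2 apart with separate counting intervals, ordered by log2 level ratio of Idoxuridine over DMSO (x axis); points are ratios, bars their 95% counting intervals, and colours substrate classes. The 33 higher genes run from Slc26a2 (0.51) to Slc22a7 (2.64) and the 7 lower genes from Slc25a10 (-0.50) to Slc7a3 (-1.29).

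Over single cells, Slc3a2 was correlated with the genes of the amino acid response. The amino acid response is the programme driven by the transcription factor Atf4, which raises amino acid synthesis, tRNA charging and amino acid uptake. Over 764 DMSO cells and 648 Idoxuridine cells at the fixed depth, the Pearson correlation of Slc3a2 with the sum of 16 genes of that programme was 0.457 in DMSO and 0.327 in Idoxuridine. It ranked 6 and 9 among 7302 genes, whose 95th percentile was 0.143 and 0.114. Slc1a5 had 0.398 and 0.218, Slc7a5 had 0.348 and 0.287 (ranks 17 and 12) and Slc38a1 had 0.329 and 0.192. Slc7a3 had 0.196 and 0.184. In each library 9 of the 88 solute carriers measured this way were above the 95th percentile of all genes. The same count for the other lists was 4 and 2 for the mTORC1 genes, 2 and 7 for metal handling, 5 and 2 for the mitochondrial partners and 9 and 6 for the pumps and partner subunits. These correlations are descriptions of 1 library each: the points share a library and its total UMIs per cell.

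**Figure D4:**
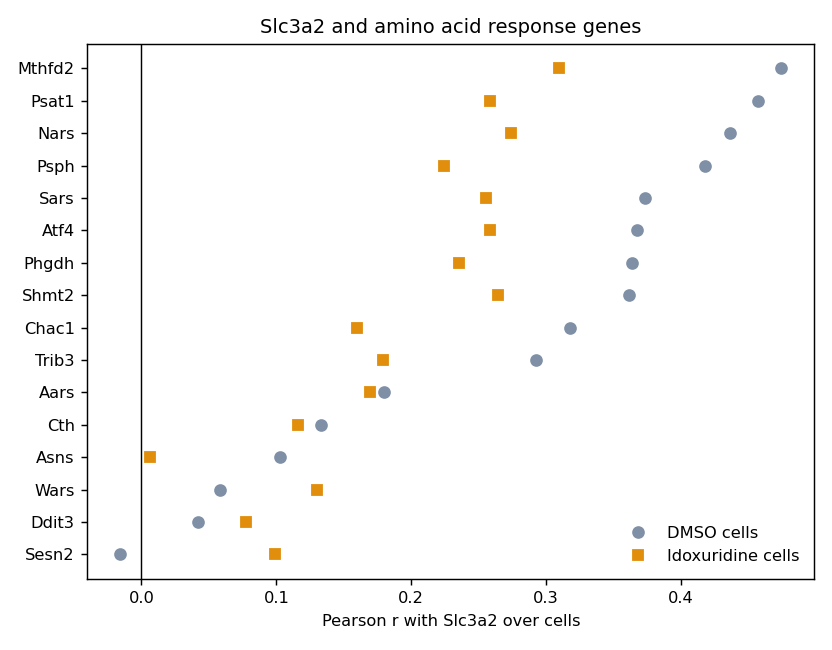
Pearson correlation of Slc3a2 with each of 16 amino acid response genes over cells at the fixed depth (x axis), for 764 DMSO cells (circles) and 648 Idoxuridine cells (squares). Mthfd2 lies furthest to the right in both libraries (0.474 and 0.310), and the DMSO value is the larger one for 13 of the 16 genes.

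Gene by gene, the highest DMSO values of Slc3a2 were those with Mthfd2 of the mitochondrial folate pathway (0.474 in DMSO and 0.310 in Idoxuridine), with the serine synthesis gene Psat1 (0.457 and 0.259) and with the tRNA ligase Nars (0.436 and 0.274). Atf4 itself had 0.368 and 0.259. Asns, the most abundant gene of the list, had 0.103 and 0.00625, and Sesn2 had -0.0156 and 0.0993. Slc3a2 and its light chain Slc7a5 correlated with each other at 0.286 and 0.225. In level, none of the 16 response genes was called higher or lower, and their median log2 ratio was -0.09. Of all genes 23% were called, but the 16 were abundant, at a median DMSO level of 150 CPM. In the highest group by total UMIs, 3.08% of all genes were higher and 4.70% lower.

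By total UMIs, metal carriers had similar sums in both libraries and calls in both directions. The 23 genes of the class summed to 619 CPM in DMSO and 637 CPM in Idoxuridine, with 4 higher (17.4%, against 18.8% of all genes), 2 lower (8.70%, against 4.2%) and a median log2 ratio of 0.08 (-0.13 and -0.17 with TMM and median-of-ratios factors). A cell held a median of 14.6 and 14.8 UMIs of the class, and 52.0% of Idoxuridine cells lay above the DMSO median. Slc30a2, a zinc exporter of the Slc30 family, was the most abundant at 129 CPM (125 to 132) in DMSO and 134 (130 to 138) in Idoxuridine. Slc39a7, which releases zinc from the endoplasmic reticulum, was at 90.9 and 97.6 CPM. Slc31a1, the main copper importer of the cell surface, was at 84.2 and 63.0 CPM, a log2 ratio of -0.42 short of the size asked, and -0.63 with TMM factors. Cdc26 overlaps Slc31a1 on the other strand.

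The lower metal genes were both zinc importers of the Slc39 family. Slc39a3 was at 13.2 CPM (12.1 to 14.4) in DMSO and 5.88 (5.05 to 6.80) in Idoxuridine (log2 ratio -1.17, interval -1.42 to -0.92). Slc39a11 was at 29.9 and 20.3 CPM (-0.56), and it spans other genes, including Cog1 and Sstr2, on the other strand. The higher metal genes were Slc40a1 (the iron exporter ferroportin, 1.81 and 4.96 CPM, log2 ratio 1.45), Slc39a1, Slc41a3 (of a magnesium carrier family, 0.82) and Slc11a1 (an iron and manganese carrier of phagocytes, 0.64). Slc11a1 came to 0.43 with TMM and 0.39 with median-of-ratios factors, under the size asked. The 6 Slc30 exporters counted held no call, and the 10 Slc39 importers held 1 higher and 2 lower, where 18.8% and 4.2% of all genes were. Slc39a1 has an annotated pseudogene, which makes its count of 4.83 and 9.65 CPM less certain. Among 13 genes of metal storage, sensing and delivery, 1 was higher (7.69%, against 18.8% of all genes) and none lower: Hmox1, which frees iron from haem, at 116 and 203 CPM. The 13 had a median DMSO level of 72.5 CPM, against 25.2 for all genes. The metallothionein genes Mt1 (599 and 483 CPM) and Mt2 (471 and 420 CPM) were not called.

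Sugar carriers were few once Slc2a1 and Slc2a3 had been set aside. The 7 genes counted summed to 120 CPM in DMSO and 117 in Idoxuridine, with 2 higher (28.6%, against 18.8% of all genes) and none lower (against 4.2%). Their median log2 ratio was 0.14, which became -0.07 and -0.11 with TMM and median-of-ratios factors and -0.09 among cells of a similar nuclear-retained RNA share. Slc37a3 was at 37.0 and 35.1 CPM. Slc50a1, of the SWEET family of sugar carriers, was at 27.3 and 25.6 CPM. Slc2a8, a glucose carrier of internal membranes, was at 27.1 and 21.3 CPM. The higher genes were the inositol cotransporter Slc5a11 (4.80 and 7.13 CPM, log2 ratio 0.57) and Slc37a4 (3.85 and 5.55 CPM, 0.53), which takes glucose 6-phosphate into the endoplasmic reticulum. Neither kept the size asked under TMM factors, which gave 0.36 and 0.32. The class had a median of 2.74 UMIs per cell at the fixed depth in DMSO and 2.53 in Idoxuridine.

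Carriers of inorganic ions had a log2 ratio of summed levels of 0.45, and 0.33 without Slc24a5. The 21 genes summed to 304 CPM in DMSO and 416 CPM in Idoxuridine, with 7 higher (33.3%, against 18.8% of all genes), none lower (against 4.2%) and a median log2 ratio of 0.27 (0.06 with TMM and 0.02 with median-of-ratios factors). By total UMIs, a DMSO cell held a median of 7.08 UMIs of the class and an Idoxuridine cell 9.39, with 82.6% of the latter above the DMSO median. Slc24a5 alone made up part of that difference: without it the sums were 293 and 368 CPM, and 75.3% of Idoxuridine cells lay above. Slc4a5, a sodium-bicarbonate cotransporter, was the most abundant member at 76.0 and 91.4 CPM and was not called.

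Slc24a5 (chromosome 2, 125068124 to 125088677, forward strand) encodes a potassium-dependent sodium-calcium exchanger known for its part in pigmentation. It was at 10.9 CPM (9.91 to 12.0) in DMSO and 47.4 (45.0 to 49.9) in Idoxuridine (log2 ratio 2.12, interval 1.96 to 2.28). The alternatives tried for it gave 1.87 to 2.20. Myef2 overlaps it on the other strand, and whether the counting used strand was not given in the sources used here. Slc34a3 (chromosome 2, 25228898 to 25234364, reverse strand), a sodium-phosphate cotransporter known from the kidney, was at 2.18 CPM (1.75 to 2.68) in DMSO and 13.1 (11.8 to 14.4) in Idoxuridine (log2 ratio 2.58, interval 2.25 to 2.93). Its upstream stretch is the one printed without a CG. Slc4a8, a sodium-driven chloride-bicarbonate exchanger, was at 1.62 and 6.47 CPM (2.00). The anion exchanger Slc4a2 (0.58), the potassium-chloride cotransporter Slc12a4 (1.03), the sulphate carrier Slc26a2 (0.51) and Slc4a11 (0.85) were also higher. Slc4a2 and Slc26a2 came under the size asked with TMM (0.37 and 0.30) and median-of-ratios factors (0.33 and 0.26). That left 5 higher and 1 lower in the class with either. Over all genes, 12.1% were higher and 12.2% lower with TMM, and 11.0% and 14.9% with median-of-ratios factors.

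Lipid and choline carriers also had a larger sum in Idoxuridine by total UMIs. The 9 genes summed to 125 CPM in DMSO and 170 CPM in Idoxuridine (log2 0.44, and 0.17 without Slc27a3), with 3 higher (33.3%, against 18.8% of all genes), none lower and a median log2 ratio of 0.08 (-0.13 and -0.17 with TMM and median-of-ratios factors). The ratio of sums without Slc27a3 is smaller in size than the shifts of -0.21 (TMM) and -0.25 (median of ratios), so its direction depends on scaling. Their median DMSO level was 14.1 CPM, and all genes in the second group by total UMIs (median 15.5 CPM) had 21.4% higher. Slc27a3, of the fatty acid transport family, was at 21.1 and 52.8 CPM (1.32), and Slc44a3, of the choline carrier family, at 1.42 and 4.79 CPM (1.75). Slc27a1, also of the fatty acid transport family, had a log2 ratio of 0.67, which came to 0.46 with TMM and 0.42 with median-of-ratios factors, under the size asked.

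The remaining classes held 9 genes or fewer each, with at most 2 higher and 1 lower, where 18.8% and 4.2% of all genes were. Slc22a7, an organic anion carrier, had the highest ratio of all 146 genes, at 0.882 CPM (0.618 to 1.22; 36 UMIs) in DMSO and 5.52 (4.71 to 6.42; 168 UMIs) in Idoxuridine (log2 ratio 2.64, interval 2.12 to 3.21). Slc16a3, the lactate exporter MCT4, was at 3.99 and 12.5 CPM (log2 ratio 1.64), while Slc16a1, the lactate carrier MCT1, was at 65.8 and 58.8 CPM. Among their partner proteins, Bsg (basigin) was at 929 and 890 CPM, and Emb (embigin) was at 5.66 and 39.9 CPM, a log2 ratio of 2.82. Emb was the only one of 9 pumps and partner subunits that was called (11.1%, against 23% of all genes). The 9 had a median DMSO level of 87.9 CPM, against 25.2 for all genes. The acetyl-CoA carrier Slc33a1 (0.76) and Slc22a17 (1.40) were also higher.

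The nucleoside carriers are of interest because Idoxuridine is itself a nucleoside, and 4 were counted. Slc28a1 (chromosome 7, 81114799 to 81170416, forward strand), a sodium-driven carrier of pyrimidine nucleosides, was at 12.6 CPM (11.5 to 13.7) in DMSO and 5.25 (4.47 to 6.13) in Idoxuridine (log2 ratio -1.26). Ndufs6b overlaps it on the other strand. The equilibrative carriers Slc29a2 and Slc29a3 were at 11.3 and 9.03 CPM and at 26.7 and 22.1 CPM, both short of the size asked by total UMIs. Lower calls among the 4 nucleoside carriers rose from 1 to 2 with TMM and to 3 with median-of-ratios factors. Over all genes they rose too, from 4.2% to 12.2% and 14.9%. Slc29a4 was higher, at 1.96 and 5.19 CPM (1.40). The other lower genes were Slc17a9, which loads nucleotides into vesicles (29.2 and 19.5 CPM, -0.58), and the haem carrier Slc48a1 (11.4 and 7.52 CPM, -0.60), which Hdac7 overlaps on the other strand. None of the 5 nucleotide sugar carriers counted was called, where 23% of all genes were.

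Spread between cells was read from the Fano factor, in which the variance of a gene's counts is divided by its mean, so that counting alone gives 1. To hold depth equal, each cell was thinned to 23500 UMIs, which left out 47 shallower DMSO cells (5.80%) and 94 Idoxuridine cells (12.7%). A mean of 0.25 UMI after thinning was asked in each library, which 88 genes reached and the other 58 did not. Of the 88, 68 (77.3%) had a higher Fano factor in Idoxuridine, where 79.2% of all 7316 such genes did. The median log2 ratio of Fano factors was 0.07 for solute carriers and 0.08 for all genes. Ratios of at least 0.5 log2 were found for 3 of the 88 (3.41%), against 2.54% of all genes, and ratios of -0.5 or less for none, against 0.137% of all genes. Raw UMIs, whose spread includes the cells' differing totals, gave a higher value in Idoxuridine for 57.1% of solute carriers and 49.9% of all genes.

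**Figure D5:**
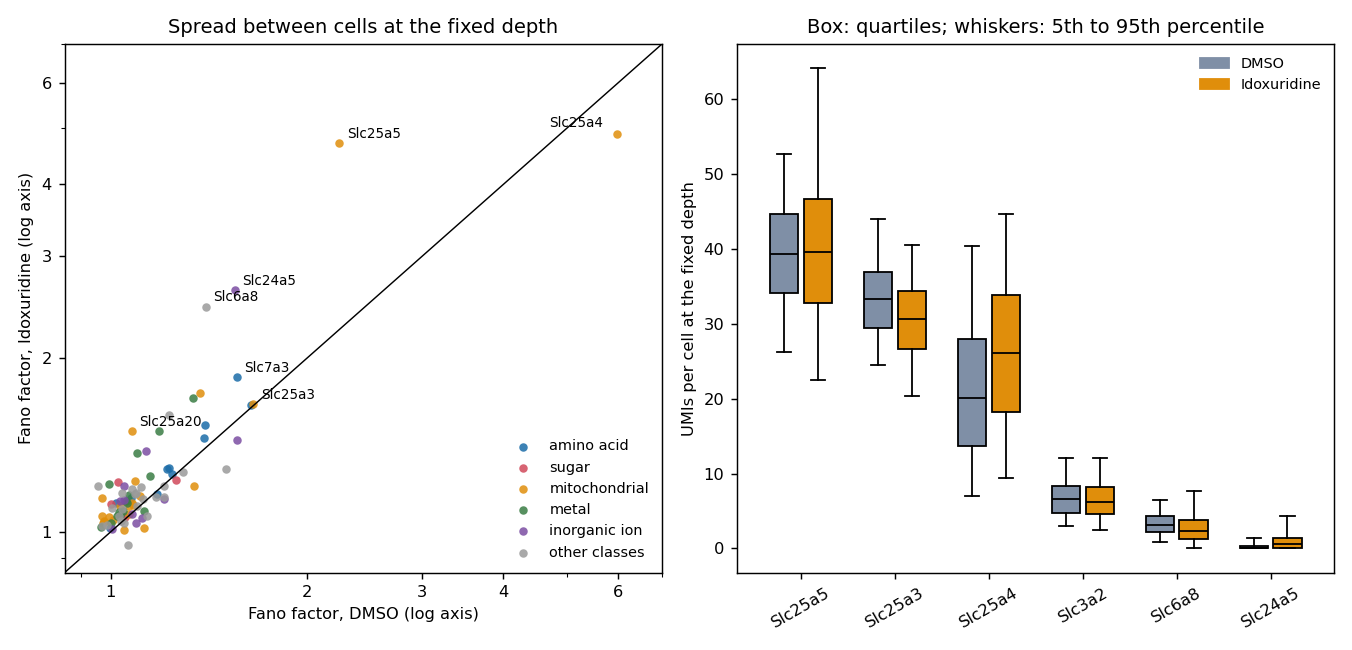
Left, Fano factor of each of the 88 genes in DMSO (x axis) and Idoxuridine (y axis) at the fixed depth, on log axes, with the line of equal values. Right, UMIs per cell at the fixed depth for 6 genes, with boxes at the quartiles, a line at the median and whiskers at the 5th and 95th percentiles over cells; the Slc25a5 whiskers run from 26.2 to 52.7 in DMSO and from 22.5 to 64.2 in Idoxuridine at medians of 39.3 and 39.7.

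Slc25a5 had the largest Fano ratio of the 88, from 2.24 in DMSO to 4.71 in Idoxuridine (1.07 log2), with nearly the same mean level. Its 5th and 95th percentiles were 26.2 and 52.7 UMIs per cell in DMSO and 22.5 and 64.2 in Idoxuridine, and the highest cell held 67.9 and 135 UMIs. Of the Idoxuridine cells, 12.8% lay above the DMSO 95th percentile and 10.6% below the DMSO 5th percentile. The spread was thus wider at both ends. On raw UMIs the log2 ratio was -0.24, and among cells of a similar nuclear-retained RNA share, thinned as before, it was 0.60. The phosphate carrier Slc25a3, of a similar level, had Fano factors of 1.65 and 1.66.

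Slc25a4 had the largest Fano factor of the solute carriers in both libraries and the lowest ratio, from 5.98 in DMSO (24th of 7316 genes) to 4.89 in Idoxuridine (55th), or -0.29 log2. Its 5th and 95th percentiles were 6.97 and 40.3 UMIs per cell in DMSO and 9.41 and 44.6 in Idoxuridine. The correlation of Slc25a4 with Slc25a5 was close to 0 over DMSO cells (0.0374) and over Idoxuridine cells (-0.0266). Slc6a8, the creatine carrier (chromosome X, 73673150 to 73682502, forward strand), went from 1.40 to 2.45 (0.81 log2) at 145 and 123 CPM, with 0.25 on raw UMIs and 0.47 in cells of a similar nuclear-retained RNA share. Slc24a5 went from 1.55 to 2.62 (0.76), and its mean differed too. Next were Slc25a20, the carnitine-acylcarnitine carrier (0.47), and the scaffold gene Slc9a3r1 (0.37, and -0.00431 on raw UMIs). After Slc25a4, the lowest ratios were those of Slc27a3 (-0.22, and 0.18 on raw UMIs), Slc27a4 (-0.16), Slc25a17, a carrier of peroxisomes (-0.16), and the citrate carrier Slc25a1 (-0.15). In Slc25a17 a single DMSO cell held 18 UMIs at the fixed depth, where the 95th percentile was 3.25.

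Slc25a5 and Slc6a8 lie on chromosome X. The comparison by chromosome was made after their values had been seen, and both genes are inside the chromosome X counts below. It is therefore a description only, and a cause was not tested. Of 217 chromosome X genes with a Fano factor, 15 (6.91%) had a ratio of at least 0.5 log2, against 171 of 7096 genes elsewhere (2.41%). The median log2 Fano ratio was 0.13 on chromosome X and 0.08 elsewhere. All 5 solute carriers of chromosome X with a Fano factor were higher in Idoxuridine, as were 92.6% of chromosome X genes and 78.8% of the others.

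Below the minimum, 153 solute carrier symbols had UMIs and 41 had none. Of the 53 with 50 to 199 UMIs, 38 (71.7%) were called higher in Idoxuridine and none lower, where 51.2% of the 2249 genes with that many UMIs were higher and 1.51% lower. Their median log2 ratio was 1.31, against 0.85 for those 2249 genes. A minimum on the sum of both libraries also admits genes that are high in only 1 of them, and nothing is read from the difference between these shares. The zinc carrier Slc30a4 was at 1.64 and 4.01 CPM (log2 ratio 1.29), the inositol cotransporter Slc5a3 at 1.91 and 3.32 CPM (0.80) and Slc7a8, a light chain of Slc3a2, at 1 UMI in DMSO and 37 in Idoxuridine. The mitochondrial carrier Slc25a42 (2.50 and 2.86 CPM) and the cystine-glutamate exchanger Slc7a11 (2.23 and 2.04 CPM) had overlapping intervals. These 5 genes were picked after their values were seen.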

How the data were processed

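Single-cell RNA libraries of E14 cells were made with the 10x Genomics 3′ V2 kit, per the labels' protocols. The authors deposited counts, as whole UMI numbers of 27998 genes in each cell, without normalization. The tools were Cell Ranger 2 and Seurat and the build was mm10, per the submitters' processing notes, which give no roles here. How barcodes were chosen as cells, the annotation release and the use of strand in counting are not given in the sources used here. Every barcode in the files was taken as a cell, and no doublet caller was run.

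UMIs were summed per library and scaled to CPM with exact Poisson 95% intervals, and ratios have exact conditional binomial intervals. With 1 library per group no test was possible and no p-value is given. Counts of 200 UMIs or more over both libraries were required. Fano factors and per-cell values are the exact expectation of thinning to 23500 UMIs, the 10th percentile of cell totals over both libraries rounded down to a multiple of 500. Per-cell values and correlations are thus counts scaled to a cell's total, whose counting noise still differs with depth. The script was tested on simulated data. Substrate classes followed the family number, with single genes reassigned by known substrate. The solute carrier genes, the classes and the related lists (amino acid response, mTORC1 at the lysosome, metal handling, mitochondrial transport partners, pumps and partner subunits) were chosen with earlier results of these data known. Of 11 listed pumps and partner subunits, 9 reached the minimum.

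Genes were named as the 10 highest in DMSO level, the 8 highest and up to 8 lowest level ratios among called genes, the 5 highest and 5 lowest Fano ratios, the 3 highest levels and 2 largest ratios in each of the amino acid, sugar, mitochondrial and metal classes, the Slc3a2 chains, the genes nearest the minimum, and called genes of the related lists. Other names were added after their values were seen. Coordinates follow GENCODE M21 for GRCm38 (the same assembly as mm10), and 23 solute carrier genes overlap another gene on the same strand and 51 on the other. Alternatives were edgeR 4.0.16 TMM factors, DESeq2 1.42.0 median-of-ratios factors, a total without ribosomal protein and mitochondrially encoded genes, a mean of per-cell CPM, cell filters, minimums of 50 and 1000 UMIs, a size of 1.0 log2, and for the spread raw UMIs, a depth of 15000 UMIs and a thinned mean of at least 1. Python 3.11.15 and R 4.3.3 were used.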

Additional observations from a re-analysis of the deposited data

How the results depend on the processing

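No paired analysis was possible because each treatment had 1 library. With TMM factors 16 solute carrier genes were lower, their median log2 ratio was -0.11 (all genes -0.12), and class medians were -0.10 for carboxylate, 0.0568 for inorganic ion, -0.13 for lipid or choline and for metal, -0.17 for mitochondrial, -0.28 for nucleotide sugar, -0.0717 for sugar and -0.12 for vitamin or cofactor carriers. With median-of-ratios factors 19 were lower, the median was -0.15 (all genes -0.16), and class medians were -0.00735 for amino acid, -0.14 for carboxylate, 0.0150 for inorganic ion, -0.17 for lipid or choline and for metal, -0.22 for mitochondrial, -0.32 for nucleotide sugar, -0.11 for sugar and -0.16 for vitamin or cofactor carriers. These factors shift every ratio equally. Over all genes, lower calls came to 12.2% with TMM and 14.9% with median-of-ratios factors. Class sums and per-cell shares were read by total UMIs only and were not recomputed with these factors. The organic ion class moved to 0.00821 with per-cell CPM and to 0.0335 without cells over 10% mitochondrial UMIs or among the top 5% (768 and 703 cells kept). The sugar class moved to -0.0918 among cells of a similar nuclear-retained RNA share (649 and 437 cells).

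A minimum of 50 UMIs gave 71 higher of 199 solute carrier genes, where 24.5% of all 12629 genes were higher. Their median was 0.23 (all genes 0.15), with class medians of 0.57 for nucleoside and 0.91 for organic ion carriers. A minimum of 1000 UMIs gave 8 higher and 4 lower of 78 genes, where 9.78% and 4.14% of all genes were. Class medians were then -0.14 for amino acid, -0.0821 for sugar and -0.0802 for vitamin or cofactor carriers. A size of 1.0 log2 gave 17 higher and 3 lower of the 146 genes, where 7.15% and 0.491% of all genes were. On raw UMIs the share with a higher Fano factor was 57.1%, and the log2 Fano ratio was -0.24 for Slc25a5, -0.00431 for Slc9a3r1 and -0.0222 for Slc31a1. By alternatives chosen after seeing the data, 48.1% of Idoxuridine cells lay above the DMSO median of sugar carriers without Slc37a3, and 75.3% above that of inorganic ion carriers without Slc24a5. The class sums without Slc24a5 or Slc27a3 were likewise added after seeing the data. Unless the construction shows it (a shift, fewer or more genes, fewer cells), the cause was not tested. No called gene named by the rule changed sign of its level ratio under the alternatives run for it. Depth limits genes below 10 CPM, whose ratios rest on few UMIs, and 1 library per treatment limits every comparison.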
